A study of Saccharomyces cerevisiae with 5 samples.

Results

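The yapsins are aspartyl proteases of the yeast cell surface, and most of them are held at the plasma membrane or in the cell wall by a glycosylphosphatidylinositol (GPI) anchor. They cut proteins after basic residues, among them other cell wall proteins and, in cells without the Golgi protease Kex2, the precursor of the α mating factor. Strains that lack several yapsins are sensitive to agents that damage the cell wall, and transcription of YPS1 is known to respond to cell wall stress through the kinases Pkc1 and Slt2. The family was taken here as its 6 genes, YPS1, MKC7, YPS3, YPS5, YPS6 and YPS7, out of 6256 genes on the array. All 6 were found by gene name, each read by 1 probe printed on 2 spots, and all 6 were among the 6241 genes tested. YPS3 is the gene that also carries the name YPS4.

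The samples compared YFR23, a chs2Δ strain without chitin synthase II, the enzyme of the primary septum, with its haploid parent MGD353-46D. Both strains are MAT α, are ADE+ and ARG, resist cycloheximide (cyhR) and carry his3delta1, ura3-52 and trp1-289 besides a leu2 mutation, and YFR23 also carries chs2::KANMX4. Cultures grew at 26 °C in synthetic medium with glucose, either complete or without histidine, and the labels do not say which culture had which. Each of 5 two-colour Agilent oligonucleotide arrays received cRNA of 1 chs2Δ and 1 wild-type culture. The chs2Δ cRNA carried Cy5 on 3 arrays (replicates 1, 3 and 5) and Cy3 on 2 (replicates 2 and 4). A single deletion strain was used, so other differences between YFR23 and its parent cannot be told apart from the loss of CHS2. Precision is limited by the small number of arrays.

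The chs2Δ channel was the dimmer one on every array, with a median signal over background of 77.5 to 197 scanner units against 213 to 431 for the wild type. All ratios below are therefore relative to the other genes of the same array. CHS2 itself was lower in chs2Δ on all 5 arrays (log2 -0.81, SE 0.17, adjusted p = 0.0025 from limma), with its chs2Δ signal above background on 4. It was looked at first because the array titles name a different mutant, the myosin II strain YJR6. CHS2 ranked 494 from the bottom of 6241 genes, and 36.0% of all genes were called lower. Its fall therefore does not by itself establish which mutant was hybridized. The position of the CHS2 probe relative to the deleted stretch was not examined. The 4 α-specific genes MF(ALPHA)1, MF(ALPHA)2, STE3 and SAG1 were above background in the wild type on all 5 arrays and stood at 0.173 to 0.232 of the wild-type level in chs2Δ. Of 7 a-specific genes only STE6 was above background in both strains on every array, and it was 1.88-fold higher in chs2Δ. The other 6 were not called. With each array centred on its median, in place of the loess curve that removes a trend with brightness, all 7 were higher. Apart from STE6, these calls rest on dim chs2Δ signals. In chs2Δ, MFA1, STE2 and BAR1 were not above background on any array, ASG7 was on 1, MFA2 on 2 and AGA2 on 3. The part of these mating genes in the yapsin values was not tested.

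In chs2Δ the yapsin genes moved in both directions. YPS3 was 2.25-fold higher, YPS6 was 1.29-fold higher, YPS1 was 1.29-fold higher with loess but not with median centring, MKC7 and YPS7 were lower, and YPS5 was too dim in chs2Δ to be measured. Of the 6 genes, 3 were higher and 2 lower at an adjusted p below 0.05 (limma over 5 arrays, Benjamini-Hochberg over all genes tested). Over all 6241 genes 71.6% passed this threshold, 35.7% as higher and 36.0% as lower, so passing it does not set a yapsin gene apart. The ratios of YPS3, MKC7 and YPS7 had 1 direction on all arrays, as did those of 71.1% of all genes. The median log2 ratio of the family was 0.16, beside -0.0061 for all genes, and it includes the dim YPS5. It was 0.36 over the 5 genes with both channels above background on 3 arrays, which leaves out YPS5. With median centring it was 0.20 over all 6. With median centring the counts were again 3 and 2, but YPS1 was no longer among the higher genes and YPS5 was.

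**Figure D1:**
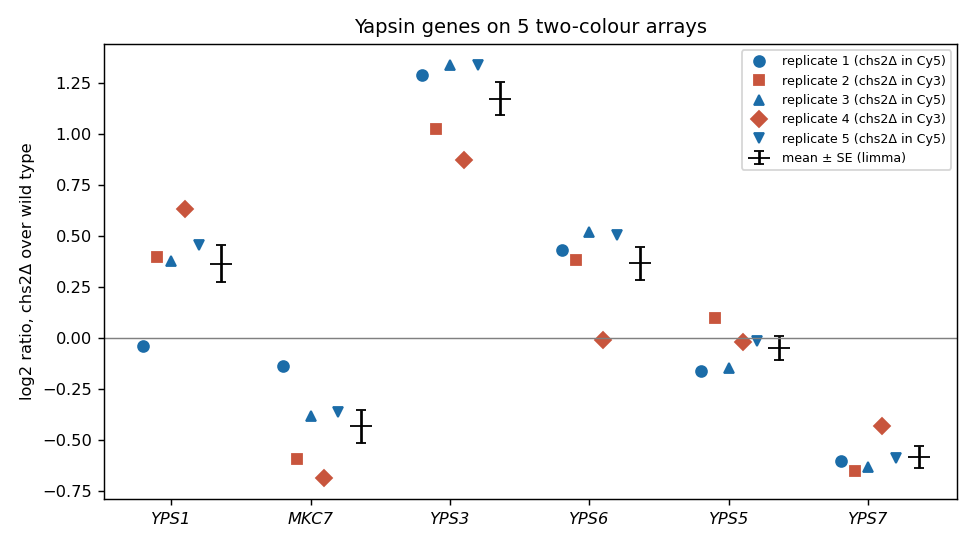
Log2 ratio of chs2Δ over wild type (vertical axis) of each yapsin gene on each of the 5 arrays, with the symbol giving the replicate and the colour the dye of chs2Δ (blue Cy5, red Cy3). Black bars are means ± SE from limma. All 5 points of YPS3 lie above 0.8, those of MKC7 and YPS7 lie below 0, and YPS1 and YPS6 each have 1 point just below 0. With median centring the mean of YPS1 is below 0 and that of YPS5 above it.

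YPS3 showed the largest change of the family, whereas with median centring YPS7 did (log2 -1.18). Its log2 ratios were 1.29, 1.02, 1.34, 0.87 and 1.34 in replicates 1 to 5, all above 0. The mean corresponds to a level 2.25-fold that of the wild type (95% interval 1.98 to 2.57; log2 1.17, SE 0.08, adjusted p = 4.9e-06 from limma). This placed YPS3 at rank 498 from the top among 6241 genes, and 10.2% of all genes were at least 2-fold higher and called. The exact two-sided sign-flip test over the arrays gave p = 0.0625, the smallest value that 5 arrays allow. With median centring YPS3 was still higher, at 1.45-fold (adjusted p = 8.8e-04), and its rank from the top was then 1737. The authors' paper lists YPS4, the other name of this gene, among cell wall stress genes and marks it as unchanged in chs2Δ. The paper used its own processing and a p threshold of 0.01, and the reason for the difference was not tested.

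YPS1 and MKC7 encode the best known pair of yapsins, both of which can process the α factor precursor in the absence of Kex2. The pair went in opposite directions. YPS1 had log2 ratios of -0.04, 0.40, 0.37, 0.63 and 0.45 in replicates 1 to 5, so that replicate 1 showed no rise. On average it was 1.29-fold higher (95% interval 1.11 to 1.49; log2 0.36, SE 0.09, adjusted p = 0.0070), and the sign-flip p was 0.125. This small rise was not kept under median centring, where its log2 ratio was -0.12 (adjusted p = 0.20). It was also not called when the 3 slides instead of the 5 arrays were taken as replicates (log2 0.30, adjusted p = 0.082).

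MKC7 had log2 ratios of -0.14, -0.60, -0.39, -0.69 and -0.36, all below 0 and weakest in replicate 1. It was 0.740 times as abundant as in the wild type (95% interval 0.649 to 0.844; log2 -0.43, SE 0.08, adjusted p = 0.0016), and at 0.641 with median centring. On replicate 1 only 1 of its spots was used, because the other was marked as poor and was far brighter in both channels. Without replicate 1 the log2 ratio of MKC7 was -0.51 and that of YPS1 0.46. YPS1 lay above MKC7 on 5 of 5 arrays, by 0.10 to 1.32 log2 units and by 0.80 on average, with the smallest gap in replicate 1. With median centring the mean gap was 0.52 and YPS1 was below MKC7 in replicate 1 (difference -0.05).

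YPS6, a further member assigned to the cell wall in the array's annotation, had log2 ratios of 0.43, 0.38, 0.52, -0.01 and 0.50. Only replicate 4 showed no rise. The average was 1.29-fold higher (95% interval 1.13 to 1.47; log2 0.36, SE 0.08, adjusted p = 0.0043), with a sign-flip p of 0.125, and 1.42-fold with median centring. In replicate 4 its spots disagreed, at 0.27 and -0.29. YPS3 was also lowest on that array, where its spots were at 0.57 and 1.17. Replicate 4 had the lowest share of chs2Δ gene spots above background, 73.9% against 78.6% to 83.2% on the other arrays, and whether this plays a part in these values was not tested.

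YPS7 gave the most even values of the family. Its log2 ratios were -0.60, -0.66, -0.63, -0.43 and -0.59, with an SD of 0.09, and all arrays showed a fall. The mean ratio was 0.668 (95% interval 0.612 to 0.728; log2 -0.58, SE 0.05, adjusted p = 2.4e-05). Its rank was 828 from the bottom. The fall was deeper with median centring, at 0.441 of the wild-type level, where the rank was 638 from the bottom.

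YPS5 has the shortest reading frame of the family, 498 bases in the RefSeq annotation of assembly R64 against 1527 to 1791 for the others. Its wild-type signal was above background on all 5 arrays, but its chs2Δ signal was not well above background on any of them. The log2 ratios of -0.16, 0.09, -0.15, -0.02 and -0.02 therefore rest on the background setting. On replicate 2 only 1 spot was used. Their mean was -0.05 (SE 0.06, adjusted p = 0.44). No fold or bound on one can be given, since the wild-type level was itself below the lowest chs2Δ signal counted as above background. With median centring the log2 ratio of YPS5 was 0.66 (adjusted p = 2.1e-04), with the same dim chs2Δ signal behind it.

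**Figure D2:**
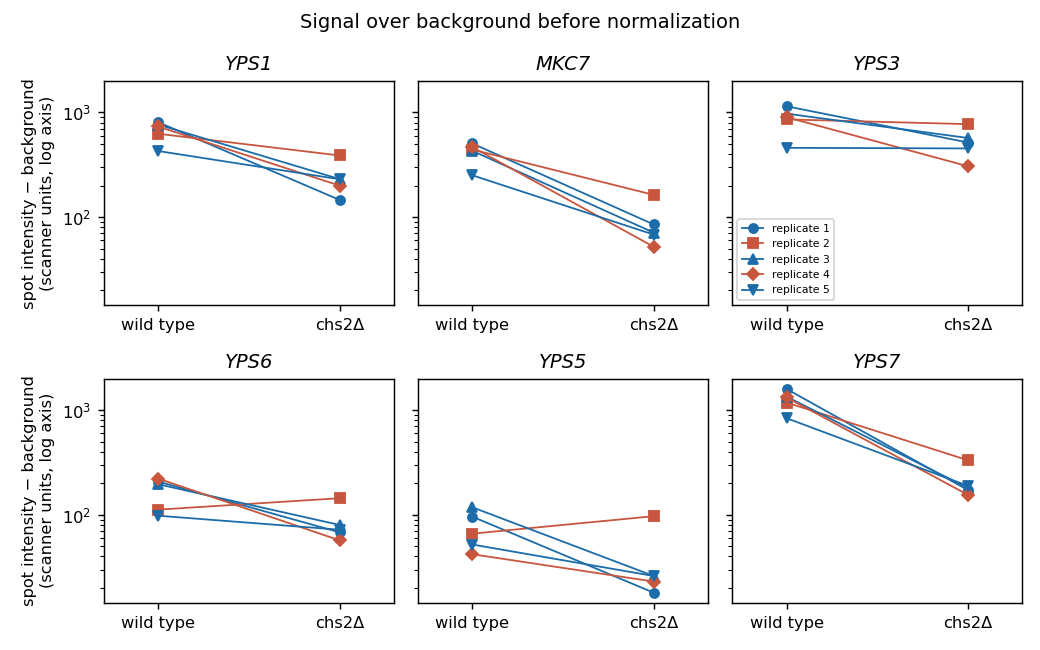
Spot intensity minus local background (scanner units, log axis, mean of the usable spots) of each yapsin gene in the wild type and in chs2Δ, before normalization. Each line is 1 array, coloured by the dye of chs2Δ (blue Cy5, red Cy3). YPS3 loses less signal from wild type to chs2Δ than YPS7 does on every array, and the chs2Δ signals of YPS5 are 18 to 97.

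The signals before normalization were read against the overall dimness of the chs2Δ channel. For YPS3 the chs2Δ signal was 45.0%, 90.1%, 58.5%, 34.0% and 98.7% of the wild-type signal in replicates 1 to 5. The ratio of the median signals over all gene spots was 20.4%, 61.8%, 24.5%, 21.9% and 40.7% on the same arrays, so YPS3 exceeded it on all 5. For YPS7 the shares were 10.8%, 28.1%, 13.4%, 11.7% and 22.6%, below that ratio on all 5 arrays. MKC7, at 16.8%, 36.9%, 16.5%, 11.1% and 27.1%, was below it on all 5 arrays too. YPS1, at 18.1%, 62.0%, 30.2%, 27.2% and 53.7%, was below it in replicate 1, level with it in replicate 2 and above it on the others. YPS6 was above it on all 5 arrays, with shares from 25.7% in replicate 4 to 129% in replicate 2.

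YPS1 spots differed in brightness although both hold the same probe. In the wild type the dimmer spot read 300 to 563 scanner units over background and the brighter one 555 to 1192. Their log2 ratios nevertheless differed by at most 0.26 on any array, with means of 0.32 and 0.40. For YPS3 the means of the spots were 1.12 and 1.22, for YPS6 0.38 and 0.35, for YPS7 -0.51 and -0.65, and for MKC7 -0.40 and -0.55. The sign of each mean was thus the same on both spots of these genes. The largest gap between spots of 1 gene on 1 array was 0.60, for YPS3 in replicate 4.

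Ratios were compared between the dye orientations, and no member's dye effect passed after adjustment. YPS3 averaged 1.32 on the arrays with chs2Δ in Cy5 and 0.95 on those with chs2Δ in Cy3. In the same order, MKC7 averaged -0.30 and -0.64, and YPS6 0.48 and 0.19. The means were 0.26 and 0.51 for YPS1, -0.11 and 0.04 for YPS5, and -0.61 and -0.54 for YPS7. In limma's fit with a dye term the dye effect had an unadjusted p of 0.0052 for YPS3, 0.016 for MKC7 and 0.057 for YPS6, and adjusted p of 0.13, 0.17 and 0.25 over all genes. Of all 6241 genes, 1291 had an unadjusted p below 0.05 for the dye term and 0 an adjusted one. With the dye term in the fit, the ratios were 1.13 for YPS3 and -0.47 for MKC7, and all 5 calls of the family stayed. Within the slides that held an array of either orientation, YPS3 averaged 1.18 and 1.10, MKC7 -0.49 and -0.53, YPS7 -0.64 and -0.51, YPS1 0.39 and 0.54, and YPS6 0.45 and 0.25.

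**Figure D3:**
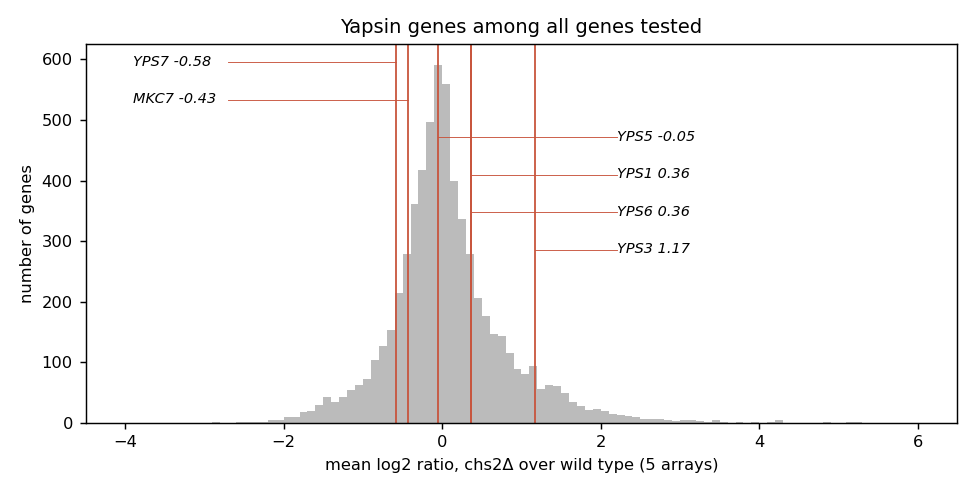
Number of genes (vertical axis) by mean log2 ratio of chs2Δ over wild type (horizontal axis, bins of 0.1), with each yapsin gene marked by a red line. YPS3 at 1.17 lies in the upper shoulder, while the other members lie between -0.58 and 0.36; YPS1 and YPS5 change sign with median centring.

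Differences between the members were compared array by array. The loess curve shifts genes by their brightness, from -0.71 for YPS5 to 0.64 for YPS3 relative to median centring, so a difference between 2 genes also depends on it. Of 15 pairs, 12 had the same order on all 5 arrays with loess and 11 with median centring, and 7 had the same order on all 5 arrays both ways. The widest was YPS3 over YPS7, by 1.75 log2 units on average (1.31 to 1.97), followed by MKC7 against YPS3, with a difference of -1.61 (-1.72 to -1.43). YPS1 minus YPS3, which are neighbours, was -0.81 (-1.33 to -0.24), and YPS3 exceeded YPS6 by 0.81 (0.64 to 0.88). With median centring the gap between YPS3 and YPS7 was 1.72 and held on 5 of 5 arrays, but YPS3 exceeded YPS6 by only 0.02 (-0.14 to 0.23) and on 2 of 5 arrays. With loess, for each of these pairs the exact two-sided sign-flip p was 0.0625 and the p adjusted over the 15 pairs 0.078, so that no pair could reach 0.05 with 5 arrays. YPS1 and YPS6 did not differ beyond their spread with loess (difference -6e-04, range -0.47 to 0.64, p = 1 by the exact test), whereas with median centring YPS1 lay below YPS6 on 5 of 5 arrays (mean difference -0.63, -1.05 to -0.14). MKC7 lay above YPS7 on 4 of 5 arrays, by 0.15 on average (-0.26 to 0.46), and below YPS5 on 4 of 5. In the order of mean ratios with loess (YPS3, YPS6, YPS1, YPS5, MKC7, YPS7), the adjacent pairs without 1 order on all arrays were YPS6 and YPS1, YPS5 and MKC7, and MKC7 and YPS7. The chs2Δ signal of YPS5 was not well above background on any array. Its place in this order and every pair with it, also in the counts above, therefore rest on the background setting.

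YPS1 and YPS3 lie next to each other on the chromosome, and they were higher to a different degree. On the far side of YPS1, SRN2, a subunit of a complex that sorts membrane proteins to the vacuole, was 1.27-fold higher (log2 0.35, adjusted p = 0.0018), with its chs2Δ signal above background on 4 arrays. On the far side of YPS3, YLR122C was not well above background in chs2Δ on any array (log2 -0.0016). The genes flanking YPS6 had higher ratios than YPS6 on all 5 arrays with loess, by 0.82 for GTT1 and 0.80 for PAU15 on average, but with median centring by only 0.02 and 0.14, on 2 and 4 of 5 arrays. GTT1, a glutathione transferase of the endoplasmic reticulum, was 2.26-fold higher (log2 1.18) and PAU15, of the seripauperin family, 2.23-fold (log2 1.16). Around YPS7, ATP22, a translation activator of the mitochondrial ATP synthase, was higher (log2 1.00) while PAL1 did not pass (log2 0.01, adjusted p = 0.86). Beside MKC7, SAN1, a ubiquitin ligase of the nucleus, was lower (log2 -0.52, 4 arrays), and TAF12, a subunit of TFIID and SAGA, was higher (log2 0.30). In all, 5 of the 10 flanking genes, YPS1 and YPS3 not counted, were higher and 1 lower, beside 35.7% and 36.0% of all genes. With median centring 7 were higher and 2 lower. GTT1, PAU15, ATP22 and SRN2 were then higher and SAN1 lower as before, while TAF12 was not called (log2 -0.19). YLR122C (0.58), YGL260W (0.96) and YGL258W-A (0.95) were called higher, and PAL1 (-0.44) was called lower. The chs2Δ signals of YLR122C, YGL260W and YGL258W-A were not above background on any array, so these added calls rest on dim signal.

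The genes whose ratios followed each called member most closely over the 5 arrays were found by the smallest root mean square difference among 6081 genes. For YPS3 they were GTT1 (0.083 log2 units), the sodium proton antiporter NHA1 (0.084) and the glycerophosphocholine phosphodiesterase GDE1 (0.092). For YPS1 they were the ABC transporter gene ADP1 (0.053), RVS167 (0.054), whose product binds membranes at actin patches, and CAP2 (0.091), a subunit of the actin capping protein. MKC7 was closest to BNI5 (0.051), a septin-binding protein of the bud neck, RDH54 (0.055) and the vacuolar ATPase subunit gene VMA8 (0.060). YPS7 was closest to the histone gene regulator HIR2 (0.038), the activator of glycolytic genes GCR2 (0.043) and the lipid kinase gene STT4 (0.050). YPS6 was closest to the ribonucleotide reductase gene RNR3 (0.072), YPR050C (0.074) and the protein phosphatase gene PPH3 (0.076). Among so many genes measured on 5 arrays such likeness is a description and carries no test. It was computed on the loess ratios. With median centring ADP1 (log2 -0.29) and RVS167 (-0.38) were called lower while YPS1 was not called (-0.12). PPH3 was then not called (-0.10) while YPS6 was higher (0.51). The other genes named had the same call as the yapsin gene they were closest to.

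**Figure D4:**
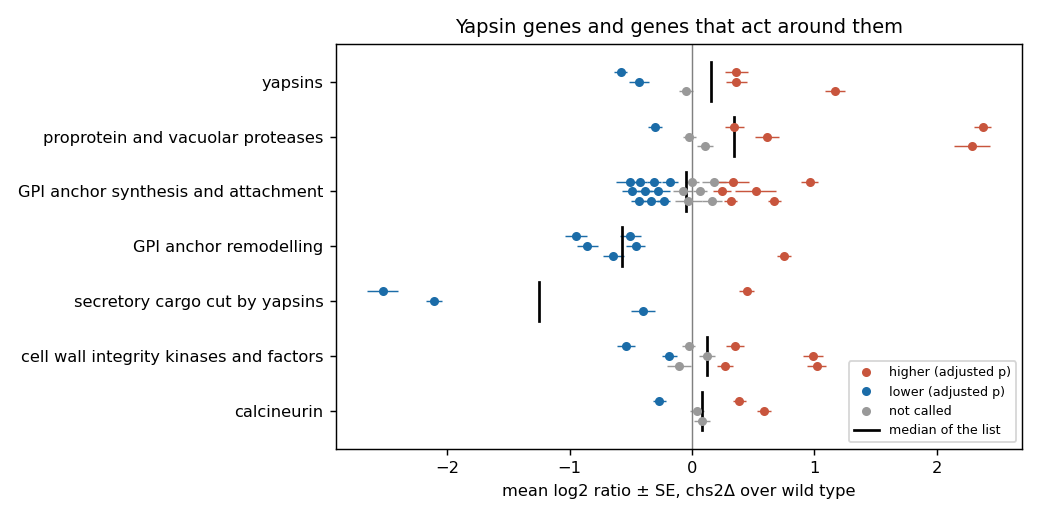
Mean log2 ratio ± SE of chs2Δ over wild type (horizontal axis) of the yapsin genes and of the genes of 6 lists around them, coloured by call (red higher, blue lower, grey not called), with the median of each list as a black bar. The proteases PEP4 and PRB1 lie furthest to the right and the α factor genes furthest to the left, also with median centring, while KEX1, PRC1, GAS1, SLT2, GPI2 and ARV1 then have the opposite call.

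Among the other proteases of the secretory pathway and vacuole, PEP4 and PRB1 had higher ratios than every yapsin gene on all 5 arrays, with loess and with median centring. PEP4, the vacuolar aspartyl protease and a relative of the yapsins, had log2 ratios of 2.22, 2.54, 2.47, 2.17 and 2.47 and was 5.19-fold higher (adjusted p = 2.8e-07 from limma). PRB1, the vacuolar serine protease that Pep4 activates, was 4.89-fold higher. These rises were 2.92-fold and 3.23-fold with median centring. KEX2, the Golgi protease that shares substrates with Yps1 and Mkc7, stood at 0.812 (log2 -0.30, adjusted p = 0.0017), and at 0.604 with median centring. The carboxypeptidases KEX1 (1.27-fold) and PRC1 (1.53-fold) were higher, but both were lower with median centring (0.829 and 0.845). STE13, the dipeptidyl aminopeptidase that trims α factor, did not pass (log2 0.11), and neither did BAR1, a secreted aspartyl protease of a cells, whose chs2Δ signal was not well above background on any array. Of the 7 proteases 4 were higher and 1 lower, beside 35.7% and 36.0% of all genes, and with median centring 3 were higher and 3 lower. The higher genes then included BAR1 (log2 0.82), with the same dim chs2Δ signal behind it.

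Genes that make and attach the GPI anchor, which carries yapsins to the surface, moved in both directions. Among 22 tested genes the calls were 6 higher and 10 lower (5 and 10 with median centring), beside 35.7% and 36.0% of all genes, and their median ratio was -0.05 on the log2 scale. ERI1 was not analysed here. Within the transamidase, which joins the anchor to the protein, the catalytic subunit gene GPI8 stood at 0.765 (adjusted p = 5.3e-04) and GAB1, with a chs2Δ signal above background on 4 arrays, at 0.703. GPI16, another subunit, was 1.60-fold higher (adjusted p = 1.3e-05), although its log2 ratio was 0.01 with median centring. GPI14, the first mannosyltransferase of the pathway, was 1.95-fold higher, and GPI13, which adds ethanolamine phosphate, stood at 0.747, both with the same direction under median centring. ARV1 and GPI2, whose chs2Δ signals were not well above background on any array, were lower here and higher with median centring.

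Genes that remodel the anchor after attachment were lower in 5 of 6 cases, beside 36.0% of all genes, with a median log2 ratio of -0.57. CWH43, which helps put ceramide on the anchor, had a mean ratio of 0.518 (log2 -0.95 with an SE of 0.09, adjusted p = 2.5e-05) and PER1, which removes a fatty acid from it, at 0.553. The deacylase gene BST1, above background in chs2Δ on 4 arrays, stood at 0.705, CDC1 at 0.641 and TED1 at 0.727. GUP1, which attaches a long fatty acid, was 1.68-fold higher (adjusted p = 8.7e-06). With median centring the same 5 genes were lower and GUP1 was not called (log2 0.18).

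Of 4 genes for proteins known to be cut by yapsins, 3 were lower, beside 36.0% of all genes, and with median centring all 4 were. MF(ALPHA)1 stood at 0.232 and MF(ALPHA)2, above background in chs2Δ on 3 arrays, at 0.174 of the wild-type level. Both also belong to the α-specific genes, of which STE3 (0.185) and SAG1 (0.173), not on this list, were lower too. Also lower was MSB2, a signalling mucin that Yps1 cuts, with a ratio of 0.758 (log2 -0.40, adjusted p = 0.0064). MSB2 changed little in replicate 1 (-0.03) and most in replicate 2 (-0.80). GAS1, a GPI-anchored glucanosyltransferase of the wall, was 1.36-fold higher (adjusted p = 2.1e-04), and 0.719 of the wild-type level with median centring.

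Genes of the cell wall integrity pathway, which regulates YPS1, were higher in 4 of 9 cases and lower in 2 (4 and 3 with median centring), near the 35.7% and 36.0% of all genes. RLM1, the transcription factor that Slt2 phosphorylates, had log2 ratios of 0.74, 1.24, 0.93, 1.14 and 1.06 and was 2.03-fold higher (adjusted p = 7.6e-06). KDX1, a relative of Slt2 and a target of Rlm1, was 1.98-fold higher. SWI4, the DNA-binding subunit of SBF, was 1.21-fold higher, and its partner SWI6, above background in chs2Δ on 4 arrays, stood at 0.689. These 4 kept their direction and their call with median centring. SLT2 was 1.28-fold higher (log2 0.35, adjusted p = 0.0024) but lower with median centring (log2 -0.35), and BCK1 stood at 0.879. PKC1, MKK1 and MKK2 did not pass, at log2 -0.11, 0.12 and -0.03. PKC1, measured on 4 arrays and above background in chs2Δ on 1 of them, was called higher with median centring (log2 0.38, adjusted p = 0.025). In the calcineurin pathway, which also regulates cell wall genes, 2 of 5 genes were higher and 1 lower (1 and 2 with median centring), beside the same shares of all genes. The regulatory subunit gene CNB1 was 1.51-fold higher (log2 -0.06 with median centring) and the catalytic subunit gene CMP2 1.31-fold (not called with median centring, log2 0.09), while CNA1, the other catalytic subunit gene, stood at 0.831. The transcription factor gene CRZ1 (log2 0.08) and the regulator RCN1 (log2 0.04) did not pass, but with median centring CRZ1 was called lower (-0.29) and RCN1 higher (0.49).

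**Figure D5:**
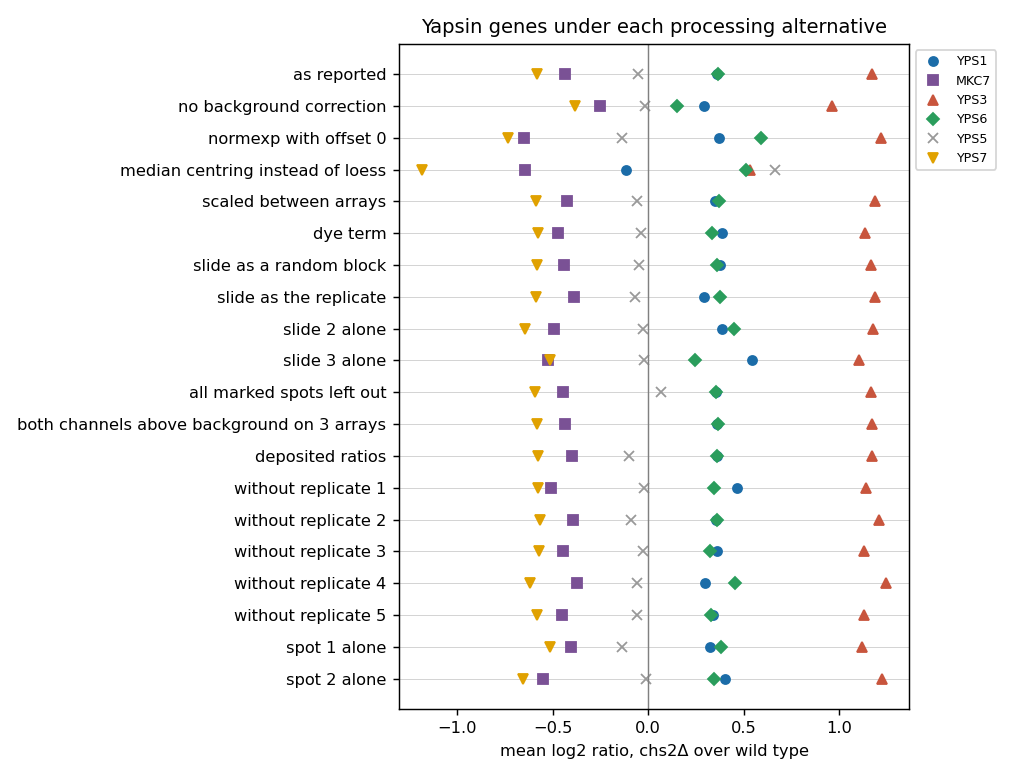
Mean log2 ratio of chs2Δ over wild type (horizontal axis) of each yapsin gene, shown by symbol and colour, under each alternative way of processing (vertical axis). YPS3 stays above 0.5 and MKC7 and YPS7 below -0.2 in every row, while YPS1 and YPS5 change sign with median centring, and YPS5 also when all marked spots are left out.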

How the data were processed

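The authors hybridized cRNA made from 1.0 µg of total RNA per culture for 17 h at 60 °C and quantified each dye channel with ImaGene (6.0.0 per the file headers, 3.0 in the methods). Scanner files, as deposited, give spot intensity, local background and a quality flag without normalization. The authors also deposited log2 ratios (Cy5 against Cy3, background corrected and lowess normalized in limma), which served as an alternative. Their scale and direction were found by matching rows in spot order (Pearson correlation 0.9986 to 0.9997 with the ratios computed here, column medians -0.0151 to 0.0153).

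In R 4.3.3 with limma 3.58.1, spots flagged as poor were removed, background was corrected by normexp (offset 50) and global loess (span 0.3, control spots at weight 0) was applied within arrays. Ratios, oriented as chs2Δ relative to wild type, were averaged over the spots of each gene. Genes measured on at least 2 arrays entered lmFit and eBayes, with Benjamini-Hochberg adjustment across the 6241 genes and a threshold of 0.05. A spot counted as above background where its mean signal was more than 2 background SD over the local background median. RefSeq (R64) matched 5756 of 6256 genes and was used for names, lengths and neighbours. The methods describe 5 independent cultures per strain, although the design text also mentions triplicates. Slide numbers come from image names in the file headers. The fit was tested on simulated arrays. Genes named are the 6 members, their flanking genes, the 3 genes closest in ratio to each called member, CHS2 and the listed genes. Members and lists were chosen with earlier results of these data known.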

Additional observations from a re-analysis of the deposited data

Results flagged for a closer look

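On 5 arrays, 1 value can stand apart from the other 4 by more than Dixon's 95% limit, which chance alone gives in about 1 of 20 sets of values. Of 70 genes examined 5 had such a value, and of 15 pairs of yapsin genes 3. YPS6 was at -0.01 in replicate 4 and between 0.38 and 0.52 on the other arrays. YPS7 was at -0.43 in replicate 4 and between -0.66 and -0.59 on the others. ARV1 was at -0.33 in replicate 4 (others -0.14 to -0.11, 4 arrays measured), and PKC1 at 0.24 in replicate 4 (others -0.25 to -0.18, 4 arrays measured). YGL258W-A, which flanks YPS5 and is not above background in either strain, was at -0.21 in replicate 3 (others -0.04 to 0.02).

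YPS1 exceeded YPS7 by 0.56 log2 units in replicate 1 and by 1.01 to 1.06 on the other arrays. YPS6 exceeded YPS7 by 0.42 in replicate 4 and by 1.03 to 1.15 on the others. YPS3 exceeded YPS6 by 0.64 in replicate 2 and by 0.82 to 0.88 on the others.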

How the results depend on the processing

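The calls of MKC7, YPS3, YPS6 and YPS7 kept their direction under all 19 alternatives, and every alternative with a test called them. Their log2 ratios ranged from -0.65 to -0.25 for MKC7, 0.53 to 1.25 for YPS3, 0.15 to 0.59 for YPS6 and -1.18 to -0.38 for YPS7. With median centring YPS1 was at -0.12 and YPS5 at 0.66, and the differences were -0.78 for YPS1 minus YPS5, -0.13 for YPS3 minus YPS5 and 0.15 for YPS5 minus YPS6, with YPS3 minus YPS6 down to 0.02 and YPS1 minus YPS6 at -0.63. With the slide as the replicate YPS1 was at 0.30 (adjusted p = 0.082), on 3 values in place of 5. YPS5 was at 0.066 (adjusted p = 0.37) when all marked spots were left out. YPS1 minus YPS6 was 0.14 with no background correction, -0.22 with normexp at offset 0 and between -0.16 and 0.12 when each array was left out in turn. The causes were not tested.

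The number of higher or lower members, and the total over the 6 lists around them, stayed within 1.5 times under every alternative run. Single lists moved more, as with median centring, where lower proteases went from 1 to 3, calcineurin genes from 2 higher and 1 lower to 1 and 2, and higher remodelling and cargo genes from 1 each to 0. Lower cell wall integrity genes fell from 2 to 1 without replicate 2, 3 or 5. Over all alternatives 64.9% to 83.1% of all genes were called. YPS5 could not be tested where both channels had to be above background on 3 arrays. The fit used ratios within arrays, which already pair both strains, and with 1 group of arrays no further pairing was possible. Signal near background limits YPS5, while the small number of arrays limits the sign-flip tests.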
